A study of Mus musculus with 6 samples.

Results

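Retinoids are vitamin A derivatives that keratinocytes take up as retinol and convert, through retinaldehyde, to retinoic acid, the ligand of the retinoic acid receptors. In skin the supply of retinoic acid is known to bear on keratinocyte differentiation, on hair follicles and on sebaceous glands, and excess retinoic acid is oxidised by dedicated cytochrome P450 enzymes. The genes described here are the 9 members Rdh10, Dhrs9, Dhrs3, Aldh1a1, Aldh1a2, Aldh1a3, Crabp2, Cyp26a1 and Cyp26b1, of 18217 genes named on the array. They were chosen by name, as the probes whose RefSeq accession maps to 1 of these symbols, which gave 11 probes.

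The epidermis of newborn mice (postnatal day 0, mixed strain) was profiled on 6 Agilent 1-colour arrays. The 3 AhRCA mice expressed a constitutively active aryl hydrocarbon receptor (AhR), a transcription factor known from the response to dioxins, under the keratin 14 promoter, which is active in basal keratinocytes. The 3 WT mice were littermates, 1 for each AhRCA mouse, so that there were 3 litter pairs, here matched by replicate number. The comparison asks which retinoid genes differ in level when AhR is active in the keratinocytes of newborn skin.

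By the scanner software's call 56.2% to 61.3% of spots per array were well above background, 0 were saturated, and the number of arrays limited the precision. Litter pairs 1 and 2 lay on slide 1 and pair 3 on slide 2. The brightest probe of Xist, which is transcribed from the inactive X chromosome, stood at log2 levels of 4.66 and 4.57 in AhRCA 1 and 2 and 4.43 and 4.44 in WT 1 and 2. It stood at -7.14 in AhRCA 3 and -4.20 in WT 3, so that slide and sex, which went together with pair 3 against pairs 1 and 2, could not be told apart, though each was balanced between genotypes. Cyp1a1, the classic AhR target, stood at log2 levels of 3.32, 3.68 and 5.04 in AhRCA, against -3.96, -3.03 and -2.18 in WT (log2 fold change 7.07, adjusted p = 0.00470, limma), so that all arrays went with their labels. The keratinocyte markers had 8 of 8 members tested, 0 of which changed, and a summed level of 1445 to 1746 in AhRCA and 1523 to 1672 in WT (array 75th percentile = 1), so the tissue carried the markers of its label.

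Sequence upstream of 6 of the 9 genes was at hand from RefSeq (GRCm38.p6), in 9 windows of 250 bases before an annotated start. Promoters were searched on both strands for the AhR core GCGTG, and for the retinoic acid receptor motif AGNTCANNNNNAGNTCA, a direct repeat with a spacer of 5 bases. The spaced repeat was found upstream of Cyp26a1 alone among these genes, from 32 to 16 bases before the start on the strand opposite to the gene, and 0.198% of all 32851 windows held one. The single motif AGNTCA, 2 copies of which make up the repeat, was found in 41.3% of all windows and upstream of Cyp26a1 and Dhrs9. The AhR core was found upstream of Aldh1a2 alone, 128 bases before the start on the gene's own strand, and 28.2% of all windows held one. The windows of Cyp26a1 (chr19:37697558-37697807, plus strand) and Aldh1a2 (chr9:71215539-71215788, plus strand) are shown because they hold these matches, with the 2 copies of AGNTCA in capitals (read on the opposite strand) in the first and the AhR core in capitals in the second. A match describes the letters only.
Cyp26a1: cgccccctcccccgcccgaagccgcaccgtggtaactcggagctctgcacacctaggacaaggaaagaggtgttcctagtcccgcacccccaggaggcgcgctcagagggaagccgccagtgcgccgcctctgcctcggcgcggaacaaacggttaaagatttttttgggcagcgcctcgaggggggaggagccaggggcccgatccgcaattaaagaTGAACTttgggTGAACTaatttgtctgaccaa
Aldh1a2: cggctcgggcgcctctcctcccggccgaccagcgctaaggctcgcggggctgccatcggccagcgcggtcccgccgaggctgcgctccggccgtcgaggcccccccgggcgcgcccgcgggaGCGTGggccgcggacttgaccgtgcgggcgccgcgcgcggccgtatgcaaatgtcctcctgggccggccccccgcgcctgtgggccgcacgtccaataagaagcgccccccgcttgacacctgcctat
Both genes shown were at or near background in the epidermis, as described below.

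Levels are given as log2 processed intensity relative to the 75th percentile of each array, so that 0 is the level of that percentile and 1 unit is a doubling. For 6 of the 9 genes 3 or more arrays gave a signal well above background and a test was made, which was not so for Aldh1a2, Cyp26a1 and Dhrs9. Aldh1a3 was lower in AhRCA epidermis, at 2.34-fold below WT, and was the only 1 of the 6 tested genes to pass an adjusted p of 0.05 (limma, Benjamini-Hochberg over 12824 genes). Of all genes tested 2.18% changed, 1.65% lower and 0.53% higher in AhRCA. The 6 tested genes had a median log2 fold change of -0.07, against 0.0013 over all genes tested. The 3 AhRCA arrays did not overlap the 3 WT arrays for 2 of the 6, Aldh1a3 and Crabp2, both lower in AhRCA, where 8.84% of all genes tested were lower without overlap and 7.52% higher.

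**Figure D1:**
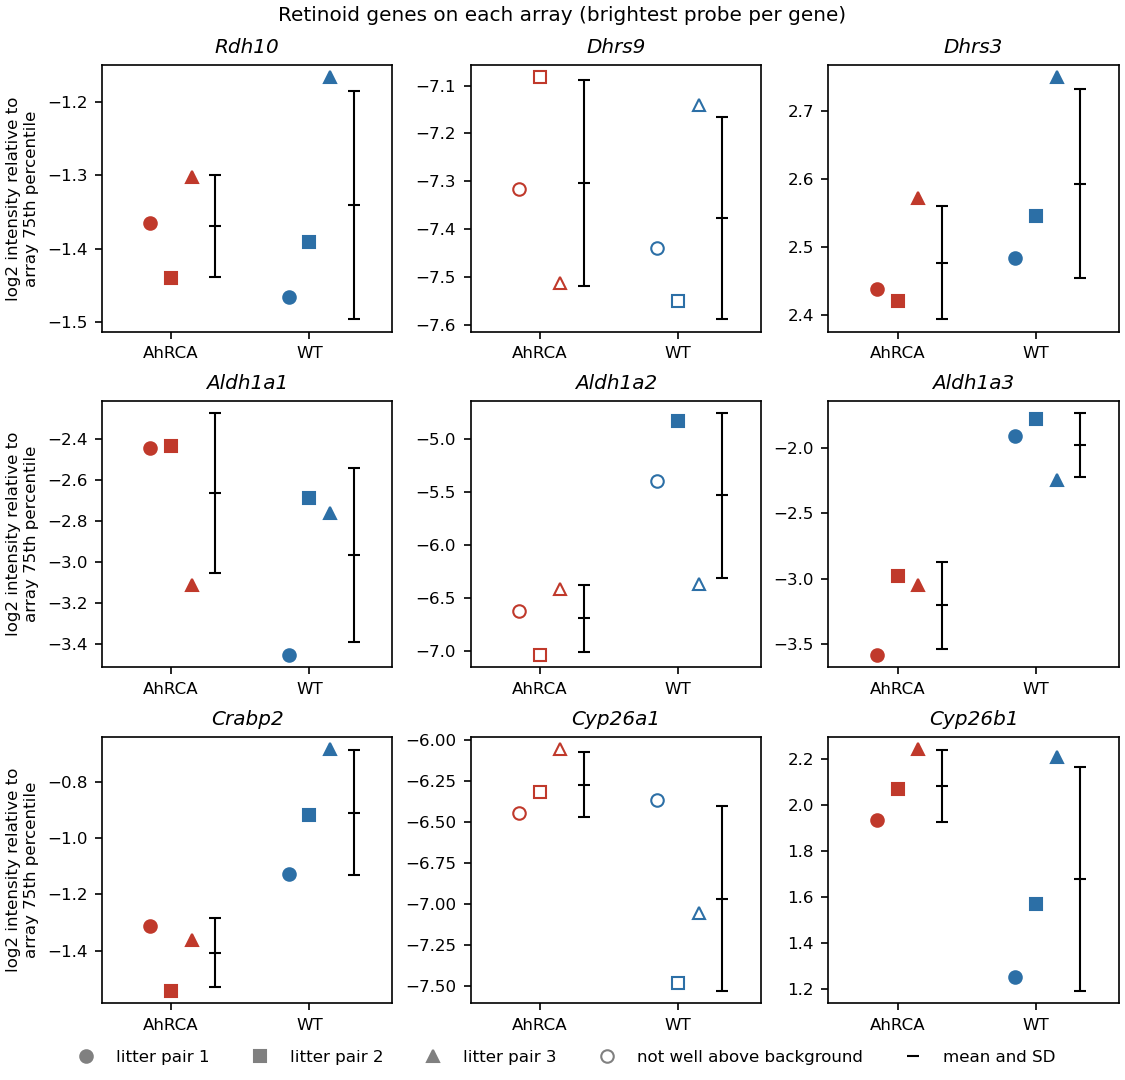
Level of each of the 9 retinoid genes on each array (log2 intensity relative to the array's 75th percentile, brightest probe per gene, each panel with its own axis), AhRCA left and WT right, with the symbol giving the litter pair, open symbols for spots not well above background, and bars for the mean and SD (n = 3). The AhRCA and WT points of Aldh1a3 and Crabp2 do not overlap, whereas Dhrs9 and Cyp26a1 have open symbols on all 6 arrays.

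The first step, the oxidation of retinol to retinaldehyde, is catalysed by Rdh10 and in some tissues by Dhrs9. Rdh10 (chromosome 1) stood at log2 levels of -1.36, -1.44 and -1.30 in AhRCA 1 to 3, against -1.46, -1.39 and -1.17 in WT 1 to 3. The groups overlapped, and the log2 fold change was -0.03 ± 0.12 (SE, n = 3 per group), with a 95% interval of -0.32 to 0.26 and an adjusted p of 0.999 (limma, Benjamini-Hochberg). A second probe of Rdh10 stood at -1.33, -1.31 and -1.38 in AhRCA and at -1.82, -1.70 and -1.09 in WT, a difference of 0.20. On that probe AhRCA was higher in litter pairs 1 and 2 (by 0.49 and 0.39) and lower in pair 3 (-0.29), so the 2 probes differ in sign, each within the spread of its arrays. Dhrs9 (chromosome 2) had no array with a signal well above background, with values from -7.51 to -7.08 in AhRCA and -7.55 to -7.14 in WT.

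Dhrs3 runs the first step backwards, reducing retinaldehyde to retinol, and is known as a gene that retinoic acid induces. Its tested probe (chromosome 4) stood at log2 levels of 2.44, 2.42 and 2.57 in AhRCA 1 to 3, against 2.48, 2.55 and 2.75 in WT 1 to 3. AhRCA was lower than its littermate in each of the 3 pairs, by small amounts (-0.05, -0.13 and -0.18), while the groups overlapped. The log2 fold change was -0.12 ± 0.12 (SE), with a 95% interval of -0.40 to 0.17, and did not pass (adjusted p = 0.938, limma). The second probe gave differences of -0.09, -0.09 and -0.09 in the 3 pairs. It stood at 1.12 in AhRCA 3 and 1.21 in WT 3 on slide 2, below all 4 arrays of slide 1. The tested probe was, in contrast, highest on slide 2 in both genotypes.

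Retinaldehyde is oxidised irreversibly to retinoic acid by the aldehyde dehydrogenases Aldh1a1, Aldh1a2 and Aldh1a3, which differ in where they are made. Aldh1a3 (chromosome 7) stood at log2 levels of -3.59, -2.98 and -3.04 in AhRCA 1 to 3, against -1.91, -1.78 and -2.25 in WT 1 to 3. All AhRCA arrays lay below all WT arrays, and each AhRCA mouse lay below its littermate. The mean level was -3.20 ± 0.33 in AhRCA and -1.98 ± 0.24 in WT (SD, n = 3 each). Aldh1a3 thus fell by 1.23 on the log2 scale (SE 0.21, 95% interval -1.72 to -0.73, adjusted p = 0.0402, limma with Benjamini-Hochberg adjustment). In these bulk samples fewer cells that make Aldh1a3 and less of its RNA per cell cannot be told apart.

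Within litter pairs the log2 differences of Aldh1a3 were -1.68, -1.20 and -0.80, with a mean of -1.44 over the 2 pairs of slide 1. The change passed with litter pairs blocked (adjusted p = 0.0474, limma) and with slides blocked (0.0467). It did not pass on slide 1 alone (0.0904), with arrays scaled on their median (0.0562), without a filter on dim probes (0.0922), or without any 1 of the arrays. Leaving out AhRCA 1, 2 or 3 gave adjusted p of 0.0897, 0.103 and 0.0926, and leaving out WT 1, 2 or 3 gave 0.111, 0.153 and 0.0548. The log2 fold change was between -1.44 and -1.03 in all of these settings. With normexp it was -0.77, at an adjusted p of 0.0319 (limma).

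Aldh1a1 (chromosome 19) stood at log2 levels of -2.44, -2.44 and -3.11 in AhRCA 1 to 3, against -3.46, -2.69 and -2.76 in WT 1 to 3. The groups overlapped, with AhRCA above its littermate in pairs 1 and 2 (1.01 and 0.25) and below it in pair 3 (-0.35). The log2 fold change was 0.30 ± 0.27 (SE), with a 95% interval of -0.35 to 0.96, and did not pass (adjusted p = 0.903, limma). In a fit with an interaction of genotype and slide, added after the values were seen, the genotype difference of Aldh1a1 was lower by 0.99 on slide 2 than on slide 1 (adjusted p = 0.545, limma), and of 12821 genes 1 passed. Slide 2 held pair 3 alone, so that slide and sex cannot be told apart in this fit.

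Aldh1a2 (chromosome 9), the enzyme known for retinoic acid synthesis in the early embryo, was well above background on WT 2 only. It stood at -6.62, -7.04 and -6.41 in AhRCA 1 to 3, against -5.39, -4.83 and -6.37 in WT 1 to 3, while the lowest signal counted as well above background lay between -5.23 and -4.77 on these arrays. The other 5 values are no more than upper bounds, and no fold is given. Without a filter on dim probes the gene did not pass (adjusted p = 0.417, limma).

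**Figure D2:**
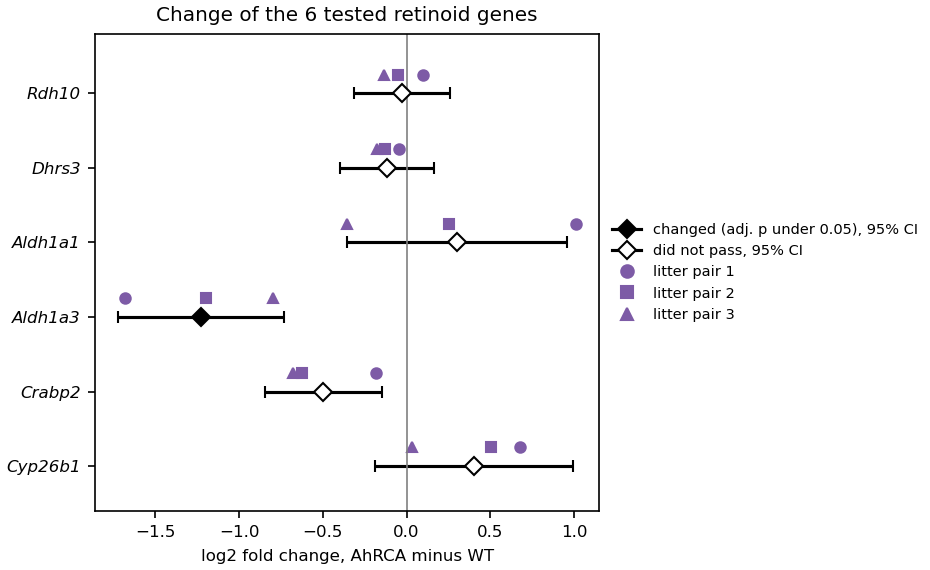
Log2 fold change of the 6 tested retinoid genes (AhRCA minus WT, diamonds with 95% intervals from limma, filled where the adjusted p was under 0.05) and the difference within each litter pair (purple symbols). Aldh1a3 lies at -1.23 with its pairs at -1.68, -1.20 and -0.80, Crabp2 has 3 pairs below 0, and the pairs of Aldh1a1 lie on both sides of 0.

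Crabp2 carries retinoic acid through the cytosol and hands it to its nuclear receptors. The gene (chromosome 3) stood at log2 levels of -1.31, -1.54 and -1.36 in AhRCA 1 to 3, against -1.13, -0.92 and -0.68 in WT 1 to 3. All AhRCA arrays lay below all WT arrays, with pair differences of -0.18, -0.63 and -0.68. The log2 fold change was -0.50 ± 0.15 (SE, n = 3 per group), 1.41-fold below WT, with a 95% interval of -0.85 to -0.15. At an unadjusted p of 0.0127 it did not pass after adjustment (adjusted p = 0.194, limma), nor in any of 16 other settings (0.0911 with slides blocked to 0.511 without WT replicate 2).

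Retinoic acid is broken down by the hydroxylases Cyp26a1 and Cyp26b1. Cyp26b1 (chromosome 6) stood at log2 levels of 1.93, 2.07 and 2.24 in AhRCA 1 to 3, against 1.25, 1.57 and 2.21 in WT 1 to 3. WT 3 lay within the AhRCA range and the other 2 WT arrays below it. Pair differences were 0.68 and 0.50 on slide 1 and 0.03 on slide 2, and over both genotypes the level was 0.52 higher on slide 2 than on slide 1. Slide 2 held litter pair 3 alone, so that slide and sex cannot be told apart here. The log2 fold change was 0.41 ± 0.25 (SE), with a 95% interval of -0.19 to 0.997, and did not pass (adjusted p = 0.703, limma). The genotype difference of Cyp26b1 was lower by 0.56 on slide 2 than on slide 1 in the fit with the interaction, which did not pass (adjusted p = 0.523, limma).

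Cyp26a1 (chromosome 19), whose upstream window with the receptor repeat is printed above, gave no signal well above background on the 6 arrays. Its values ran from -6.45 to -6.06 in AhRCA and from -7.48 to -6.37 in WT, all below the lowest signal counted as well above background. No level or fold follows from them. Among the enzymes for synthesis and breakdown, the array thus measured Rdh10, Dhrs3, Aldh1a1, Aldh1a3 and Cyp26b1 in all 6 samples.

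**Figure D3:**
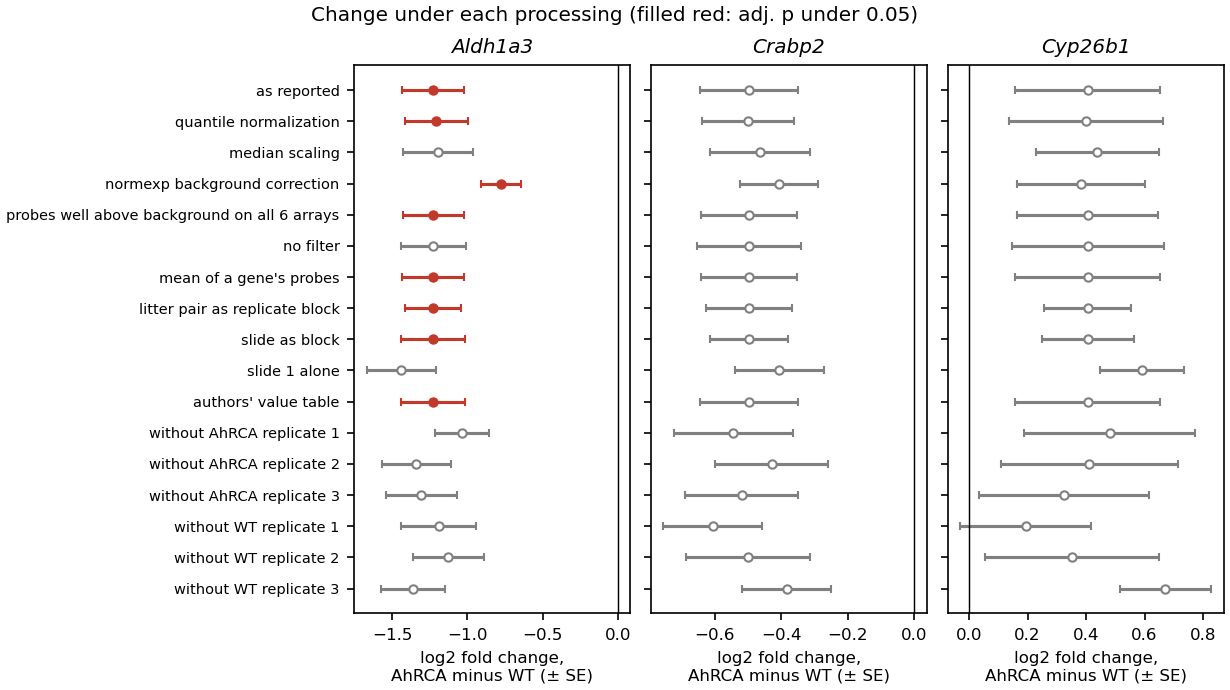
Log2 fold change (AhRCA minus WT, with SE) of Aldh1a3, Crabp2 and Cyp26b1 under each processing, filled red where the adjusted p was under 0.05. Aldh1a3 stays below 0 in all 17 settings shown and loses its filled symbol when any 1 array is left out, and Crabp2 and Cyp26b1 have open symbols throughout.

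The neighbouring steps of the pathway were read from 6 further lists with 69 genes, of which 67 were on the array and 52 were tested. Of these 0 rose and 3 fell, where 0.53% of all genes tested rose and 1.65% fell, and the median log2 fold change of the 52 was -0.07. Among the 3, Tgm2 passed the filter through WT arrays alone. With only probes well above background on all 6 arrays, 2 of 48 fell. At an unadjusted p under 0.05 (limma) stood 12 of the 52, a larger share than the 12.2% of all genes tested (1563 of 12824). The lists were chosen with earlier results of these data known, so no reading is drawn from this. Blocking litter pairs gave 2 higher and 2 lower, and blocking slides 2 higher and 3 lower.

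Of 6 tested genes of retinoid uptake and binding 0 changed (limma, 1 at an unadjusted p under 0.05). The member with the largest difference was Cd36, a scavenger receptor for fatty acids and carotenoids, with a log2 fold change of -0.95 (95% interval -1.67 to -0.22, adjusted p = 0.235, limma). Of the 5 tested genes of retinyl ester storage and provitamin cleavage 1 fell. Awat2, an acyltransferase that makes wax esters and can esterify retinol, stood at -4.36, -4.11 and -3.97 in AhRCA 1 to 3, against -3.10, -2.75 and -3.07 in WT 1 to 3. The groups did not overlap, and the log2 fold change of Awat2 was -1.17 ± 0.15 (SE), at an adjusted p of 0.0182 (limma). It did not pass with normexp (-0.49 at 0.0625), on slide 1 alone (0.0716), or when AhRCA 1 (0.0662), AhRCA 2 (0.0861) or WT 2 (0.0704) was left out.

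Of 17 tested dehydrogenases and oxidases of retinol and retinaldehyde outside the members, 0 changed (limma, 3 at an unadjusted p under 0.05). The largest difference was that of Adh7, the class IV alcohol dehydrogenase of epithelia, which oxidises retinol. It stood at log2 levels of -1.89, -1.32 and -0.76 in AhRCA 1 to 3, against -4.81, -5.21 and -2.91 in WT 1 to 3, with 2 of 3 WT arrays well above background. All AhRCA arrays lay above all WT arrays, with WT 3 on slide 2 the highest of WT. The log2 fold change was 2.99 ± 0.61 (SE, 95% interval 1.52 to 4.46), with an adjusted p of 0.0706 (limma), which did not pass. It passed with litter pairs blocked (0.0262), slides blocked (0.0142), median scaling (0.0391) and normexp (0.0324, at a log2 fold change smaller by over 1.5 times), on slide 1 alone (0.0396, at 3.41) and when WT 3 was left out (0.0189, at 3.69). Rdh16, a retinol dehydrogenase of the short-chain family, had no AhRCA array well above background and passed the filter through its 3 WT arrays alone. Its measured log2 difference was -0.91 (95% interval -1.52 to -0.29) and did not pass (adjusted p = 0.174, limma). The AhRCA side of this difference and of its interval was not well above background. The difference was -0.31 with normexp, and it passed when WT 1 was left out (0.0347).

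Of 11 tested receptors and coregulators 0 changed (limma, 2 at an unadjusted p under 0.05). Rarb, a receptor gene that retinoic acid itself induces, stood at log2 levels of -2.46, -2.33 and -2.58 in AhRCA 1 to 3, against -2.12, -1.90 and -2.12 in WT 1 to 3. Its groups did not overlap, and the log2 fold change of -0.41 (95% interval -0.71 to -0.12) did not pass (adjusted p = 0.198, limma). Cyp2s1, whose human enzyme can oxidise retinoic acid, was the only 1 of its list to be tested, with a log2 fold change of 0.36 (95% interval -0.06 to 0.77, adjusted p = 0.532).

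Of 15 tested genes known to respond to retinoic acid in other settings 0 rose and 2 fell (limma). Tgm2, a transglutaminase, had no AhRCA array well above background and passed the filter through its 3 WT arrays alone. Its WT mean lay 5.03-fold above the mean, over the AhRCA arrays, of the lowest signal counted as well above background. The adjusted p of 0.0282 (limma) belongs to the measured log2 difference of -2.86 (95% interval -3.89 to -1.83), whose AhRCA side lies below that signal. Tgm2 did not pass with normexp (-1.09 at 0.0655), quantile normalization (0.0553) or no filter on dim probes (0.0685). Nor did it pass when any single array other than WT 3 was left out (0.0611 without WT 1 to 0.108 without WT 2). Krt15, a keratin of basal cells and of the follicle bulge, stood at 6.85, 6.73 and 6.83 in AhRCA 1 to 3, against 7.32, 7.61 and 7.63 in WT 1 to 3. Its groups did not overlap, and the log2 fold change was -0.72 ± 0.13 (SE), at an adjusted p of 0.0460 (limma). It did not pass with litter pairs blocked (0.0534), quantile normalization (0.0626), median scaling (0.0838), no filter (0.103) or on slide 1 alone (0.123), in the authors' deposited values (0.0532), or when any single array other than WT 1 was left out (0.0984 without WT 3 to 0.194 without WT 2). The list's median was -0.17, and 7 of the 15 had a positive and 8 a negative fold change. The list was not split by the direction in which retinoic acid moves each gene, so these counts and the median give no reading of its response.

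**Figure D4:**
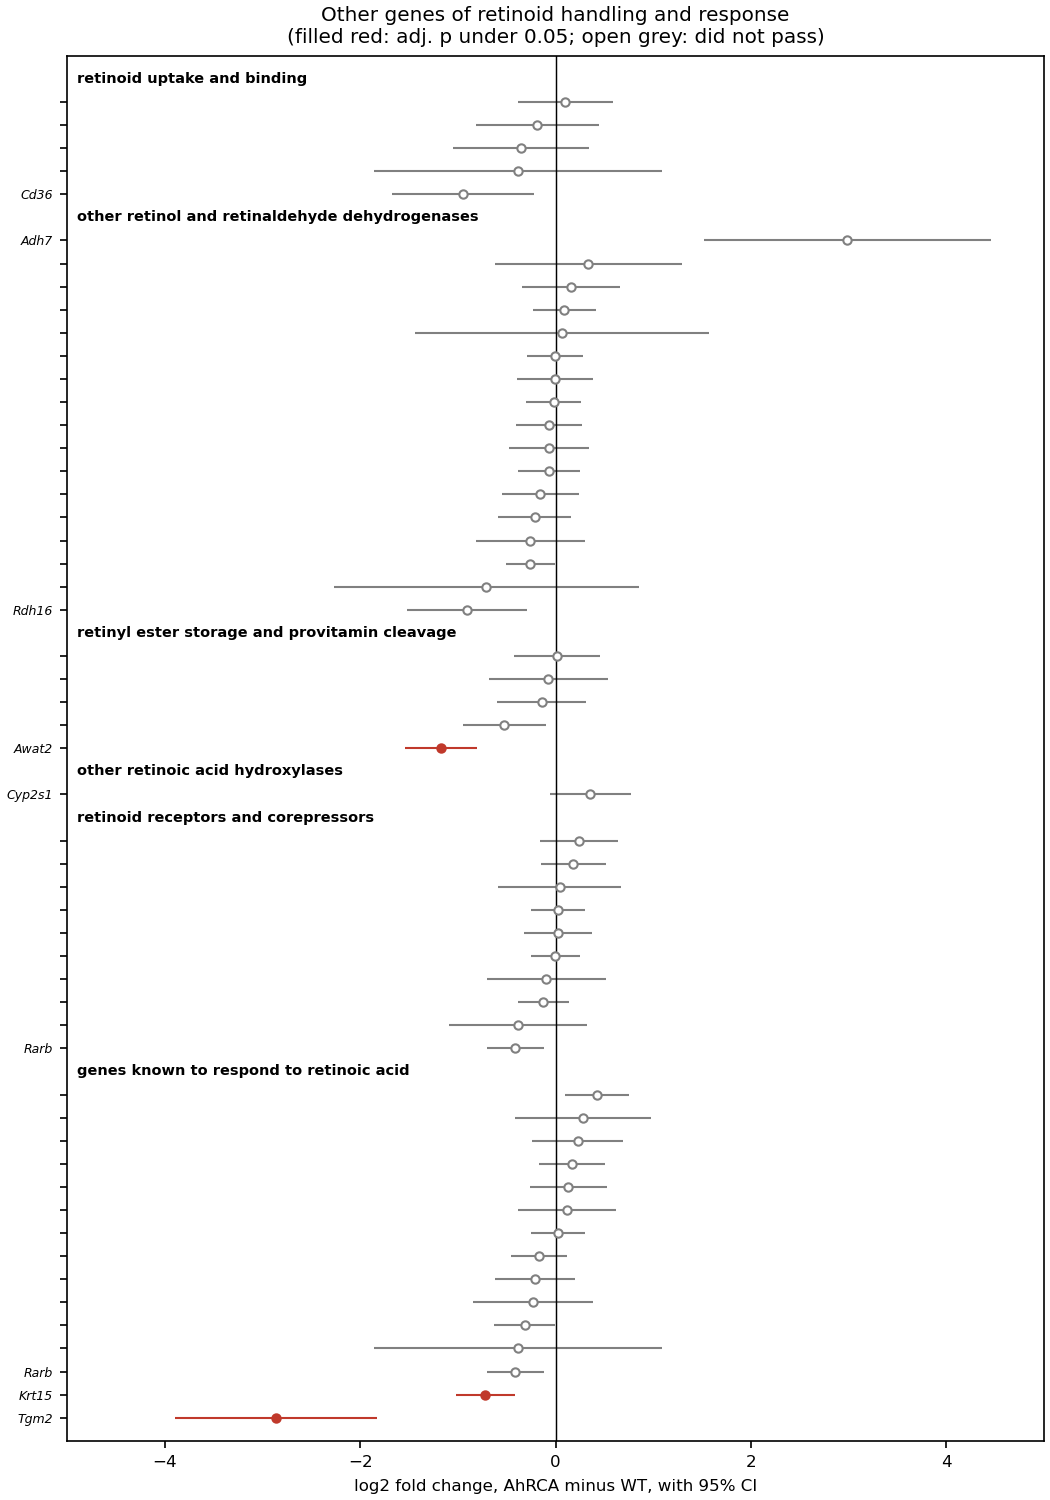
Log2 fold change (AhRCA minus WT, with 95% intervals from limma) of tested genes of 6 lists of retinoid handling and response, 2 of them not shown, with genes in 2 lists shown in both, labels for the genes named in the text, filled red where the adjusted p was under 0.05. Awat2, Krt15 and Tgm2 are filled, all below 0, and Adh7 stands apart at 2.99 with an open symbol.

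The genes with the profile most like that of Aldh1a3 were sought among 12051 others well above background on all 6 arrays, by the root mean square difference of mean-centred log2 levels over the 6 arrays, which is 0 for the same profile. The 5 nearest were Lmcd1 (0.119), Zfp608 (0.134), Pkp2, a plakophilin of desmosomes (0.136), Col1a2, a chain of type I collagen (0.146), and Awat2 (0.153). Among the other tested retinoid genes the nearest was Crabp2 (0.507), followed by Dhrs3 (0.622), Rdh10 (0.670), Aldh1a1 (0.893) and Cyp26b1 (0.921). This order is that of their log2 fold changes given above and adds nothing to them. Since the 5 nearest genes were picked for a profile that separates the genotypes, their own differences between genotypes follow from the choice and are not given as results. Awat2 is given above, and Col1a2 below, only as members of their own lists.

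Some markers of other cells of the skin fell in the AhRCA samples in which Aldh1a3 and Awat2 fell, where 1.65% of all genes tested fell. Of 7 tested sebaceous gland markers 6 fell, and their summed level was 9.92 to 10.8 in AhRCA and 25.6 to 34.0 in WT. Of 4 Merkel cell markers 3 fell, with sums of 0.408 to 0.618 in AhRCA and 1.38 to 2.19 in WT, while Atoh1 and Sox2 had no array well above background. Among the 3, the tested probe of Piezo2 was well above background in WT alone and passed the filter only through that group. Of 10 hair follicle markers 1 fell (sums of 304.5 to 373 in AhRCA and 405 to 543 in WT), and of 6 markers of Langerhans and dendritic cells 1 fell (2.40 to 5.26 in AhRCA and 5.57 to 11.1 in WT). The sums of these 4 lists did not overlap between genotypes, though not all of their genes differed. In the hair follicle list Lgr5 fell, the bright keratins Krt25 and Krt71 had log2 fold changes of -1.12 and -1.24 without passing (adjusted p = 0.162 and 0.135, limma), and the groups overlapped for the other 7 genes. Among the Langerhans and dendritic cell markers Cd207 fell, Cd74, H2-Aa and H2-Ab1 were lower without overlap and did not pass, Itgax differed by 0.0072 (log2), and Ptprc had a log2 fold change of 0.40 without overlap (adjusted p = 0.385, limma). Cd207 too was well above background in WT alone and passed the filter only through that group.

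Of 4 T cell markers 0 changed (limma, 2 at an unadjusted p under 0.05), with sums of 0.615 to 0.704 in AhRCA and 1.05 to 2.24 in WT, which did not overlap either. The groups overlapped for Cd3e, Cd3g and Cd3d (log2 fold changes of -0.17, -1.03 and -1.24). Thy1 alone, the brightest of the 4 on all arrays, was lower without overlap (-1.36, adjusted p = 0.0653, limma). The sums overlapped for 6 fibroblast markers (19.2 to 19.5 in AhRCA and 18.2 to 25.5 in WT), 4 melanocyte markers (67.5 to 81.0 in AhRCA and 59.4 to 86.3 in WT), 2 adipocyte markers (0.702 to 1.79 in AhRCA and 1.37 to 2.49 in WT) and 1 endothelial marker (0.133 to 0.165 in AhRCA and 0.148 to 0.169 in WT). Of these 13 genes 0 changed (limma, 2 at an unadjusted p under 0.05), and Pdgfra and Dpt of the fibroblast list and Pecam1, Cdh5, Kdr, Tek and Emcn of the endothelial list had no array well above background. Dcn was by far the brightest fibroblast marker and Dct the brightest melanocyte marker on all arrays, so these sums mostly follow those genes. Col1a2 was lower without overlap (log2 fold change -1.19, adjusted p = 0.0622, limma). Col1a1, Col3a1, Lum and Twist2 had positive fold changes and Dcn a negative one, each with overlap. The part of the listed cell types in the level of Aldh1a3 was not tested.

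**Figure D5:**
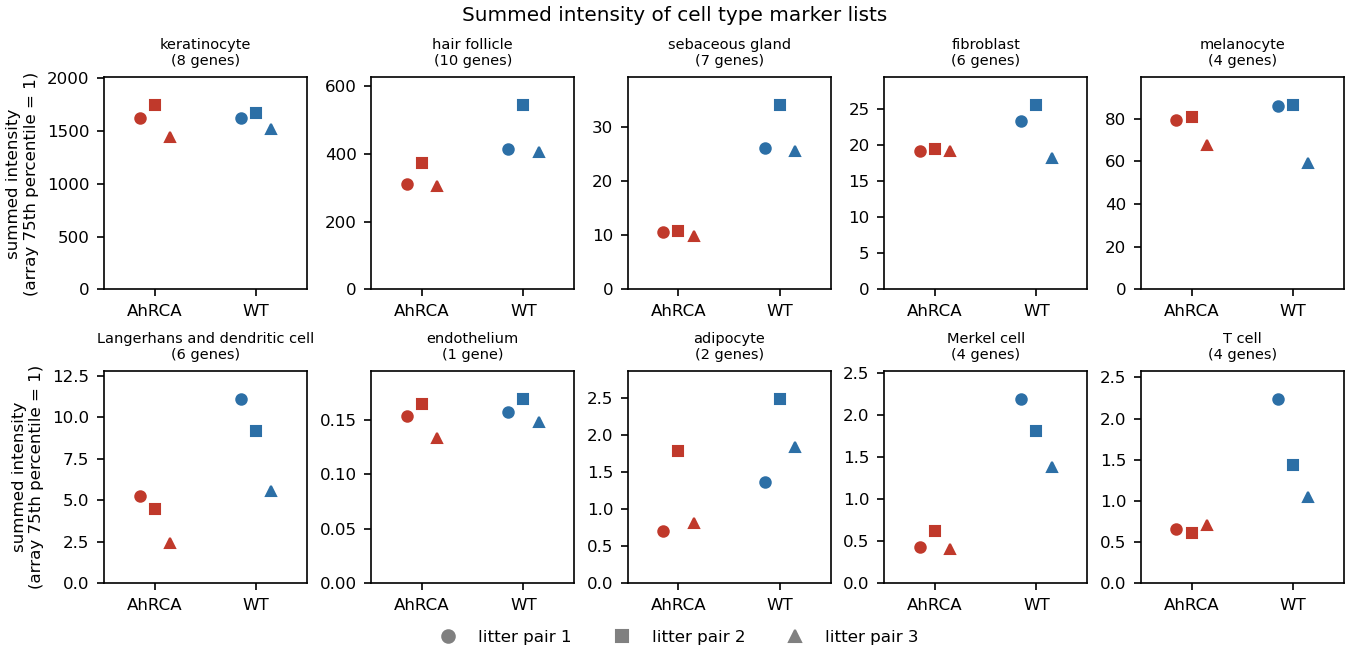
Summed intensity of the tested genes of 10 marker lists on each array (the array's 75th percentile is 1, axes start at 0), AhRCA left and WT right, with symbols for the litter pairs. The sebaceous gland, Merkel cell, hair follicle, Langerhans and T cell sums are lower on all AhRCA arrays than on any WT array, and the keratinocyte sums overlap.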

How the data were processed

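Per the labels, total RNA of each epidermis was labelled with Cy3 and hybridised to its own array. Per the file headers, the deposited intensity values came from Agilent Feature Extraction 10.7.3.1, with background subtracted on each array and no scaling between arrays. The authors' deposited table holds log2 values for 41267 probes. Its differences between arrays matched those of the log2 processed intensity, each probe was centred on its median, and its direction was that of the intensities. Its scaling constant is not given in the sources used here. Column medians were 0.028, 0.064 and -0.071 for AhRCA 1 to 3 and -0.070, -0.050 and 0.083 for WT 1 to 3.

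Control spots and 56 to 94 outlier spots per array were left out, and spots of a probe were averaged. Symbols came from RefSeq accessions (GRCm38.p6), which named 26690 of 41174 probes. Probes well above background on at least 3 arrays were kept, and the probe with the highest mean stood for its gene. Genotypes were compared with limma 3.58.1 (R 4.3.3), two-sided, with Benjamini-Hochberg adjustment over 12824 genes (a value was missing for 3). The fit was run on simulated data with independent noise on each array. That setting lacks the correlation within pairs given below, so it checks the code and not the error rates of this design. Members, lists and tests were chosen with earlier results of these data known. The rule for named genes took all members, Cyp1a1 and Ahr, up to 4 changed genes per list or, failing any, the 2 most different ones, and the 5 nearest profiles. Of the genes the rule took, 2 are not reported here. Ahr had a log2 fold change of -0.49 ± 0.10 (SE, adjusted p = 0.0653, limma, and 0.0331 with slides blocked), and whether its probe reads the transgene is not known here. Fabp5 and Cyp26c1 were not matched by symbol and were not analysed here. Where no array of 1 group showed a gene well above background, its fold is taken against the lowest signal well above background or its own value, whichever was higher. Such a fold compares group means and has no interval, so it is not a lower limit for each array.

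The labels pair each AhRCA mouse with a WT littermate, and the replicate numbers were taken to pair the samples. Deviations from the group means correlated at 0.337, 0.372 and 0.550 within pairs 1 to 3 over 12821 genes. Across pairs 1 and 2, both on slide 1, they correlated at 0.150 and 0.194, and between pair 3 and the others at -0.416 to -0.356. Pair 3 differed from the others in slide and sex, so its values cannot tell litter from these. Slides and scans coincided. Because the files lack a mean signal column, normexp (offset 50) used the median signal.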

Additional observations from a re-analysis of the deposited data

How the results depend on the processing

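Of 12824 genes, 279 changed (68 higher and 211 lower in AhRCA), against 497 with the litter pair as a block, 539 with the slide as a block, 130 on slide 1 alone and 132 without a filter on dim probes. Leaving out 1 array gave 62 (without WT replicate 2) to 195 (without WT replicate 1). Of the 9 members, 1 changed, against 0 with median scaling, on slide 1 alone and without a filter (limma, with 2, 3 and 3 at an unadjusted p under 0.05), and 0 to 0 without any 1 array (2 to 3 at an unadjusted p under 0.05). Of the other pathway genes 3 changed, against 1 with quantile normalization, 1 without a filter and 5 with the slide as a block. Leaving out 1 array gave 0 to 3, with 0 without AhRCA replicate 1, AhRCA replicate 2 or WT replicate 2 (9, 12 and 7 at an unadjusted p under 0.05). Rdh10 changed sign, with log2 fold changes of 0.0048 with median scaling, 0.0835 with the mean of its probes, 0.026 on slide 1 alone, 0.0073 without AhRCA replicate 2 and 0.0589 without WT replicate 3 (lowest -0.0904 without WT replicate 1), and passed in none. The litter pair as a block changed the calls of Adh7 and Krt15 among the pathway genes named, as given beside each. The cause of these differences was not tested. Signal near background limits what can be said of Aldh1a2, Cyp26a1 and Dhrs9.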
